A study of Mus musculus with 1 sample.

Results

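The cells described here were 127 of 10528 bone marrow cells (1.21%, exact 95% interval 1.01% to 1.43%) that carried transcripts of basophil and mast cell genes. They were chosen by their counts. A cell was a member when it held at least 2 counts of Ms4a2, at least 5 of Cpa3, fewer than 3 of Klf1 and fewer than 5 of Pf4, in a cell with 500 or more genes and no more than 20% of counts from mitochondrial genes. Ms4a2 encodes the beta chain of the high-affinity IgE receptor, and Cpa3 is mast cell carboxypeptidase, a granule protease of mast cells and basophils. Klf1 marks erythroid cells and Pf4 megakaryocytes, so the last part of the rule kept those lineages out. The values of these 4 genes in the members, and every ratio of members to other cells, follow from the choice and are given as a description.

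The cells came from a single sample, 1 library of mouse bone marrow sorted by flow cytometry and captured on the BD Rhapsody microwell system with TAS-Seq amplification. It combined cKit+Lin- progenitors, GMP-MoPs (both from 1 naive mouse and 1 mouse injected with lipopolysaccharide, LPS, a bacterial cell wall component) and cMoPs of 1 naive mouse. Genotype, strain, age and sex are not stated in the sources used here. Each origin carried its own barcoded PE-streptavidin hashtag (A961 to A965), but which hashtag went on which population or mouse is not stated, so hashtags are compared as hashtags. There was no replicate of any hashtag and hence no test between them. The 95% intervals are exact and reflect counting error alone, with each count taken as independent.

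Basophils and mast cells are granule-bearing cells that bind IgE through its high-affinity receptor and release histamine, proteases, lipid mediators and cytokines when the receptor is cross-linked. Both arise in the bone marrow from progenitors that use GATA factors, and eosinophils share part of that path. Basophils leave the marrow as finished cells, whereas mast cells complete their development in tissues, where Kit and Mitf are needed. In mice, Mcpt8 and Prss34 are proteases of basophils, and the chymases, tryptases and granzyme B are better known from mast cells.

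The library's members led the rest of the cells in a small set of genes, and the promoters of 5 of the 6 marker genes are shown. The marker gene not shown is Gata2, a GATA factor, and GATA letters were marked for that reason. Whether Gata2 regulates these genes was not tested. The sequences are from RefSeq (GRCm38.p6), each running from 250 bases before the annotated start to 50 after it, 5′ to 3′ on the gene's own strand. Capitals mark matches to GATA letters, which are AGATAA and the forms with T as the first letter, G as the last or both, on either strand.
Mcpt8, chr14:56085148-56085447, minus strand: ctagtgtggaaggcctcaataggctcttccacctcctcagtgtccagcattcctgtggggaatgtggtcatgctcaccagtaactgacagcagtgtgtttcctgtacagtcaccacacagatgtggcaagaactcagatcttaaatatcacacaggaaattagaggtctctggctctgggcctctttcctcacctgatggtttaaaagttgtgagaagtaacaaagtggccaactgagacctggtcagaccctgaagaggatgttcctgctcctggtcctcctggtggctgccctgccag
Prss34, chr17:25298144-25298443, plus strand: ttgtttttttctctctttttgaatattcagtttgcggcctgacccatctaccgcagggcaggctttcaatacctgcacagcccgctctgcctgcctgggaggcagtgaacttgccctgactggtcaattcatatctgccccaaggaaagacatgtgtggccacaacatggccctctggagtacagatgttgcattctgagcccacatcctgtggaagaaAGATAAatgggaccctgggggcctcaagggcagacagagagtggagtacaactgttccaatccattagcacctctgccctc
Cpa3, chr3:20242132-20242431, minus strand: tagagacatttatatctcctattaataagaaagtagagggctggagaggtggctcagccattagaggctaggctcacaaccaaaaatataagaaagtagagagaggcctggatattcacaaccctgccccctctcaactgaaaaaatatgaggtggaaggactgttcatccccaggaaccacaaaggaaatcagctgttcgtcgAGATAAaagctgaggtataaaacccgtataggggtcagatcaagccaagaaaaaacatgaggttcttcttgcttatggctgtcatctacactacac
Ms4a2, chr19:11623670-11623969, minus strand: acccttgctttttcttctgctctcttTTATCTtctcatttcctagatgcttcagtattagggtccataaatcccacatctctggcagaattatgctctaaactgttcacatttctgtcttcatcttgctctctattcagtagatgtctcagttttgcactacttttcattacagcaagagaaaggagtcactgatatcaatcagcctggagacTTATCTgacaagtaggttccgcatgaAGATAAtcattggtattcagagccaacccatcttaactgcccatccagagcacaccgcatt
Fcer1a, chr1:173227180-173227479, minus strand: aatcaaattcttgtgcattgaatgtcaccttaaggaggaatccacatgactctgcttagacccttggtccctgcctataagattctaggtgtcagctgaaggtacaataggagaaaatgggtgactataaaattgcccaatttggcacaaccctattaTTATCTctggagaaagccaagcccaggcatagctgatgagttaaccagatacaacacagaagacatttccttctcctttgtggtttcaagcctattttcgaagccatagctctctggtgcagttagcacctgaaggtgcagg

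Prss34 held 1 GATA match, 31 bases before its start, Cpa3 held 1 at 46 bases before and Fcer1a 1 at 92 bases before. Ms4a2 held 3, at 224, 37 and 11 bases before its start. Mcpt8 held none in this window, although it held 2 matches to the RUNX letters TGTGGT. Among all 32851 promoter windows of the same length, 29.8% held a GATA match, 16.8% the RUNX letters and 10.8% the C/EBP letters TTGCNNAA, each searched on both strands. Of the 10 genes with the largest ratios of members to other cells, which had 13 promoter windows, 7 held a GATA match in at least 1 window, 5 a RUNX match and 3 a C/EBP match. The shares over all windows are per window and these counts are per gene, so they are not on the same footing. Ms4a2 and Cpa3, used in the rule, are among the 10. A match describes letters only. In GENCODE M21 (GRCm38) Mcpt8 lies at chr14:56082166-56085273, close to Ctsg (chr14:56099881-56102574) and Gzmb (chr14:56258838-56262260). Ms4a2 lies at chr19:11615523-11623719, beside its relative Ms4a3 (chr19:11629496-11640851). All are protein-coding genes.

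The members were found under the 2 large hashtags. A963 held 55 among 4716 cells (1.17%, 0.880% to 1.52%) and A965 held 72 among 5567 (1.29%, 1.01% to 1.63%). The ratio of the shares, A965 over A963, was 1.11 (0.770 to 1.61), so a difference in share was not detectable at this number of cells. A961, A962 and A964 held 0 members among 68, 104 and 73 cells, which allows shares of up to 4.41%, 2.88% and 4.11% by the limit of 3 cells of the total. The upper ends of the exact intervals were 5.28%, 3.48% and 4.93%. Per the labels, 100 cells were loaded for each of these hashtags and 15000 for each of the large ones.

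Member totals ran from 8856 to 51914 counts in A963, with a median of 16091, and from 8892 to 115193 in A965, with a median of 23694. Members held a median of 3200 genes in A963 and 3921.5 in A965. A965 members thus held more counts per cell, as did A965 cells as a whole, with a median total of 27205 against 20430.5. RNA content and sequencing depth per cell cannot be told apart here. Members' median totals were below those of their own hashtag in both. Levels are given below as CPM, the counts of a gene summed over cells and scaled to a common total. Shares of cells with counts of a gene are given before thinning unless marked otherwise. Thinning brought each cell down to the lowest total of any cell, 8822 counts, and left out none.

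The hashtags also differed in transcripts of the sex chromosomes. Xist, the RNA that silences 1 X chromosome in female cells, had counts in 98.2% of A963 members and 13.9% of A965 members (96.4% and 9.72% after thinning), at 1384 and 26.1 CPM. Ddx3y and Eif2s3y, which lie on the Y chromosome, had counts in 41.7% and 58.3% of A965 members (20.8% and 37.5% after thinning) and in 1.82% of A963 members each, before and after thinning. Differences between the hashtags in the members therefore cannot be told apart from differences between mice, sexes, sorted populations or treatments.

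Members fell close to the limits of the rule only in small numbers. In the members, 2 cells had exactly 2 Ms4a2 counts and 3 had exactly 5 Cpa3 counts. Just outside, 3 cells had 1 Ms4a2 count with at least 5 of Cpa3, and 5 had 3 or 4 Cpa3 counts with at least 2 of Ms4a2. None of the first 3 had Gata2 or Prss34 counts, whereas all 5 of the others had Gata2, at 2 to 7 counts. Further outside, 76 cells had at least 5 Cpa3 counts and no Ms4a2. Another 90 had at least 2 Ms4a2 counts and 0 to 2 of Cpa3, so cells with 1 of the 2 genes were not rare. The Klf1 limit removed 5 cells, all of A965, and the Pf4 limit none. Of those 5, 3 held 51, 216 and 317 Mcpt8 counts with exactly 3 Klf1 counts, and the other 2 held no Mcpt8 and 15 and 37 counts of Car2, an erythroid carbonic anhydrase.

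The 6 genes that mark the cell type were all high in the members. Mcpt8, the basophil granule protease, had 0, 69 and 626 counts in the lowest, median and highest A963 cell and 0, 66.5 and 547 in A965. Prss34, a second basophil protease, had 0, 167 and 1138 in A963 and 0, 41.5 and 1034 in A965. In both hashtags some members held none of these proteases while others held over 500 counts. Cpa3 had 6, 33 and 123 counts in A963 and 5, 44.5 and 382 in A965, and Ms4a2 had 2, 21 and 46 against 2, 23 and 83. Fcer1a, the IgE-binding alpha chain, had 0, 2 and 57 counts in A963 and 0, 1 and 50 in A965. Gata2, a transcription factor of early progenitors that mast cells and basophils keep, had 0, 6 and 21 in A963 and 0, 5 and 18 in A965. Ms4a2 and Cpa3 were present in each member by the rule, and Fcer1a was absent from many members in both hashtags.

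**Figure D1:**
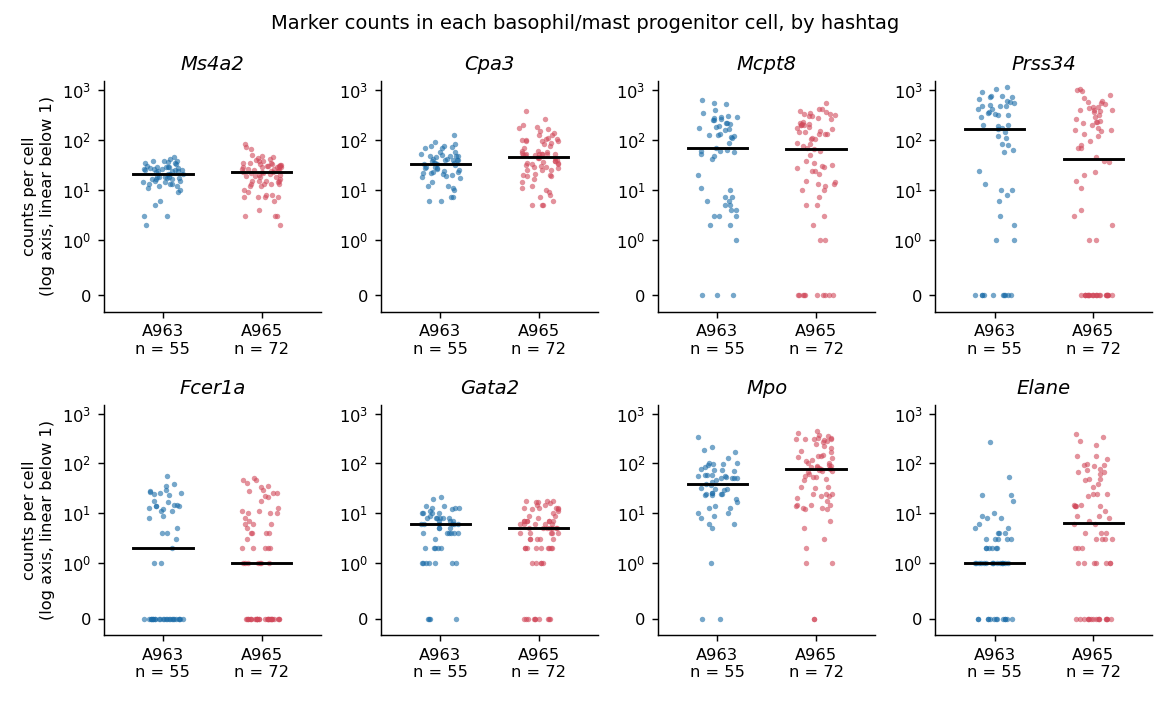
Counts per cell of 8 genes in the 127 members; each point is 1 cell, the bar is the median, and the y axis is logarithmic above 1 count and linear below. Mcpt8, Prss34 and Fcer1a spread from 0 to at least 50 counts in both hashtags, and the median of Elane is 1 in A963 and 6.5 in A965.

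Apart from Gata2 in cells with Pf4, the same genes were scarce in the rest of the library. After thinning, 84.3% of members (76.7% to 90.1%) had Mcpt8, 70.1% (61.3% to 77.9%) had Prss34, 75.6% (67.2% to 82.8%) had Gata2 and 50.4% (41.4% to 59.4%) had Fcer1a. In the 748 erythroid cells with at least 3 Klf1 counts, thinned to the same depth, the shares were 2.94%, 1.74%, 3.88% and 0.53%. Gata2 was more frequent in the 91 cells with at least 5 Pf4 counts, with counts in 34.1% of them after thinning. It summed to 80.7 CPM there, against 260 in members, so Gata2 was not particular to the members. At least 20 counts of Mcpt8 were found in 84 members and in 6 of all the other cells. Few cells with a high basophil protease level thus lay outside the rule.

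Over all 5639 genes considered, 13.8% were at least 1.5-fold higher in members than in other cells and 7.96% at least 1.5-fold lower, with a median log2 ratio of 0.12. The rule used this contrast, so nothing is read from these shares. The 10 largest ratios, by a rule of size, were those of Prss34, Mcpt8, Cpa3, Ms4a2, Csrp3, Fcer1a, Rnase12, Gata2, Cyp11a1 and Edem3. Prss34 summed to 9435 CPM in members and 4.92 in other cells, and Mcpt8 to 5281 and 9.10. Besides the marker genes, the leaders were Csrp3, a muscle LIM protein, at 459 against 1.27 CPM, Rnase12, a ribonuclease A family gene, at 333 against 0.653, and Cyp11a1, the enzyme that makes pregnenolone from cholesterol, at 148 against 0.938. Edem3, which takes part in disposal of misfolded glycoproteins, stood at 233 against 8.15 CPM. The 10 lowest ratios were those of the globins Hbb-bs, Hba-a1, Hbb-bt and Hba-a2, of the lymphoid, monocytic and dendritic genes Ighm, Irf8, Mpeg1 and Clec4a2, and of Ly6a2 and Ltf.

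Lists of genes by function are given next, and their median log2 ratios of members to other cells were 3.91 for granule genes, -0.04 for IgE receptor signalling, 0.74 for cytokine receptors, 0.71 for transcription factors, 2.03 for amine and lipid mediators and 0.69 for surface molecules, beside 0.12 over all genes. Granule genes lead these. Of 18 listed, 12 were in the table and 10 were considered, and 8 were at least 1.5-fold higher in members. Srgn, the proteoglycan core that packs granule proteases, summed to 3345 CPM in members against 886 in other cells. Ctsg, cathepsin G, summed to 2467 against 1052. In the 2940 cells with at least 20 counts of Mpo and fewer than 2 of Ms4a2 (Mpo-positive cells below), Ctsg was at 2421 CPM, close to its level in members, whereas Mcpt8 and Prss34 stood at 13.4 and 2.32 CPM. The serpin Serpinb1a was the listed gene that was lower in members, at 306 against 714 CPM.

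Proteases that mast cells use were measured here by Mcpt2 and Gzmb beside Cpa3. Mcpt2, a chymase of mucosal mast cells, had no count in any member. Gzmb, granzyme B, had counts in 5 members, all of A963, at 49, 4, 3, 2 and 1 counts. The member with 49 stood apart from the other 4, since it held 123 Cpa3, 2 Mcpt8, 2 Ms4a2 and 2 Kit counts and no Prss34 among 12691. The other 4 held 208 to 527 Mcpt8 counts and 702 to 1033 of Prss34. Itgb7 did not set the first cell apart, at 6 counts in it and 0 to 6 in the other 4. Cma1, Mcpt1, Mcpt4, Tpsab1, Tpsb2 and Tpsg1 are not analysed here. Mitf, a transcription factor of mast cells, had counts in 5.45% of A963 members and 1.39% of A965 members, and after thinning in 3.64% and 0% of them (exact upper limit 4.99%), against 2.45% of other cells. The markers measured here were thus mostly those of basophils, and the mast cell side of the name rested on genes that both cell types use, apart from the 1 cell with 49 Gzmb counts.

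Among the chains of the IgE receptor, Ms4a2 was present by the rule, and Fcer1a was found in 50.4% of members after thinning. Of 16 listed genes of the receptor and its signalling, 13 were considered, 4 were higher in members (Fcer1a, Ms4a2, Lat and Lat2) and 2 lower (Lyn and Ptpn6). Fcer1g, the gamma chain that several Fc receptors share, was at 944 CPM in members and 1059 in other cells. Lat, an adaptor that links the receptor to calcium release, was at 40.7 against 3.51 CPM, and its relative Lat2 at 95.9 against 41.7. The tyrosine kinase Syk, which acts below the receptor, was at 52.5 and 50.8 CPM, and the kinase Lyn was at 24.9 against 43.6.

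Cytokine receptors followed. Of 20 listed, 13 were considered and 7 were higher in members. Csf2rb, the shared beta chain of the receptors for interleukin 3, interleukin 5 and GM-CSF, was at 175 against 61.7 CPM, and Il3ra, the interleukin 3 receptor alpha chain, was at 82.1 against 25.2. Csf2rb and Csf2rb2 are near-identical, so reads could be split between them. Il1rl1, the receptor for interleukin 33, was at 66.0 against 3.91 CPM, and Crlf2, the receptor chain for thymic stromal lymphopoietin, at 64.9 against 33.3. Kit, the stem cell factor receptor used in the sort, was at 43.7 against 17.8 CPM and had counts in 21.3% of members (14.5% to 29.4%) and 10.6% of other cells after thinning. The receptors for G-CSF (Csf3r) and M-CSF (Csf1r) were lower, at 14.8 against 45.3 and 16.8 against 48.9 CPM. Epor, the erythropoietin receptor, was at 1.68 CPM.

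Among 31 transcription factors, 22 were considered, 12 were higher and 4 lower in members. Cebpa, a C/EBP factor of myeloid progenitors, was at 283 CPM in members, 40.4 in other cells and 73.4 in the Mpo-positive cells. Lmo4, a LIM-only cofactor, was at 740 against 90.1 CPM, and Ikzf2, which encodes Helios, at 146 against 3.92. Runx1, at 163 against 37.4, and Myb, at 343 against 94.8, were higher too. Gata2 and Cebpa had counts in 75.6% and 74.0% of members after thinning, and in 89.0% and 90.6% before it. Gata1, a GATA factor of erythroid, megakaryocytic, mast and eosinophil cells, was at 39.7 CPM in members and 139 in the Klf1-positive cells. Irf8 and Id2, which serve monocyte and dendritic cells, and Spi1 and Cebpe were the lower ones, with Irf8 at 62.3 against 372 CPM.

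Mediator genes were also present. Of 14 listed genes for amines and lipid mediators, 13 were in the table, 8 were considered and 5 were higher. The list summed to a median of 16 thinned counts in members and 10 in other cells. The median was 9 in Mpo-positive, 5 in Pf4-positive and 1 in Klf1-positive cells. Hdc, which makes histamine, was at 275 CPM in members and 27.8 in other cells, with counts in 76.4% of members (68.0% to 83.5%) and 0.80% of Klf1-positive cells after thinning. Slc18a2, the vesicular transporter that loads amines into granules, was at 125 against 1.42 CPM. Alox5, which starts leukotriene synthesis, was at 183 against 41.8. Ndst2, which sulfates the heparin chains of granules, was at 70.7 against 7.88 CPM. Ptgs2 is not analysed here.

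Cytokine transcripts were sparse. Of 16 listed genes for cytokines and chemokines, 12 were in the table and 4 were considered, of which Csf1 and Ccl9 were higher in members and none lower. Il4, the cytokine that basophils make for type 2 immunity, had counts in 29.1% of A963 members and 29.2% of A965 members, with a highest cell of 4 in A963 and 8 in A965. After thinning the share was 18.2% in A963 and 12.5% in A965, and 15.0% of all members (9.25% to 22.4%), against 0.05% of other cells and 0.13% of the Klf1-positive cells. Il6 had counts in 25.5% of A963 members and 12.5% of A965 members (16.4% and 8.33% after thinning), at no more than 6 counts a cell. Csf1, the monocyte growth factor, was at 73.4 CPM in members and 0.959 in other cells. The chemokine gene Ccl9 was at 357 against 179 CPM, and Ccl6, at 90.2 against 69.4, did not reach 1.5-fold. Il13, Il3, Csf2 and Areg are not analysed here.

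Surface molecules included those used to recognise basophils by flow cytometry. Of 19 listed, 15 were considered, 9 were higher and 2 lower. Cd200r3, an activating receptor of basophils and mast cells, was at 98.6 against 0.372 CPM, and the tetraspanin Cd63, which appears at the surface on degranulation, at 1526 against 291. Itga2b, the integrin chain better known from megakaryocytes, was at 141 CPM in members against 4.49 in other cells and 259 in the 91 cells with at least 5 Pf4 counts. Itga2, the CD49b chain of mature basophils, had counts in 6.30% of members (3.94% after thinning). Itgb7, an integrin chain of mast cell progenitors, was at 51.5 CPM in members and 51.9 in other cells.

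**Figure D2:**
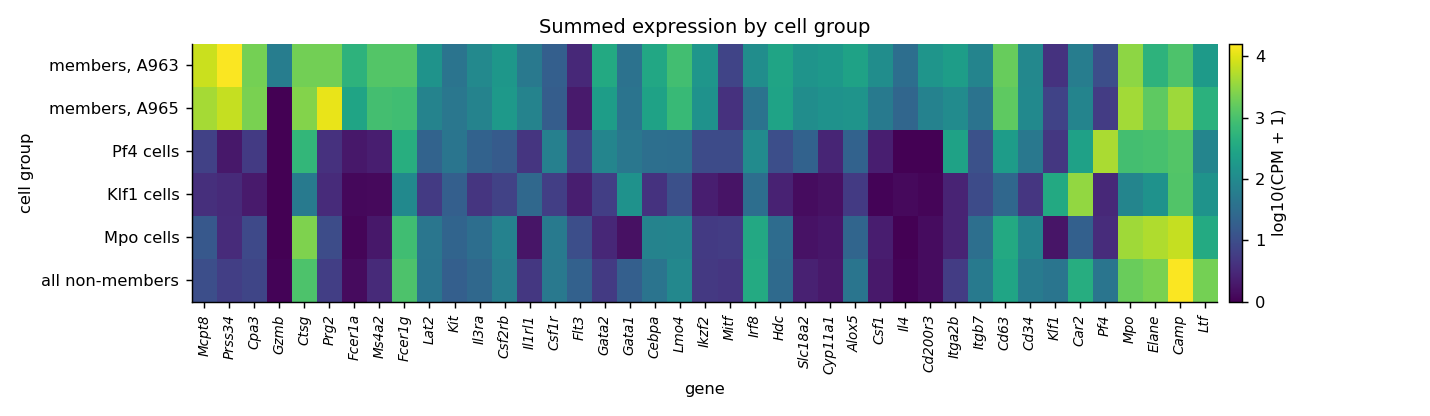
Heat map of log10(CPM + 1) for selected genes (columns) in the members of each hashtag, in cells with at least 5 Pf4, 3 Klf1 or 20 Mpo counts, and in all other cells (rows). The members are brighter than the other groups for Mcpt8, Prss34, Cpa3, Fcer1a and Ms4a2, though not for all protease and receptor genes at the left. They share Itga2b with the Pf4 cells and Ctsg with the Mpo cells.

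Genes of other lineages were low in most members. The erythroid list summed to a median of 2 thinned counts per cell in both hashtags, with a highest cell of 26 in A963 and 72 in A965, against a median of 267 in Klf1-positive cells. The megakaryocyte list summed to medians of 2 and 1, against 27 in Pf4-positive cells, and 11 members had 1 or 2 Klf1 counts and 12 had 1 to 4 Pf4 counts. The monocyte list summed to medians of 3 and 4, against 29 in other cells, and the highest members reached 93 and 100. Dntt had no count in a member. The azurophil granule list, in contrast, summed to medians of 80 in A963 and 107.5 in A965, against 15 in other cells and 140 in Mpo-positive cells, and Mpo itself, myeloperoxidase, was at 3780 CPM against 1709. Elane, neutrophil elastase, was the reverse, at 1127 CPM in members, 2246 in other cells and 5022 in Mpo-positive cells. Those cells were chosen by their Mpo counts, so members are not set against them in Mpo.

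Cell cycle genes were present at a modest level. The S phase list summed to medians of 11 and 10.5 thinned counts, against 13 in other cells and 28 in Klf1-positive cells, and the G2/M list to medians of 3 and 4, against 12 and 25. None of the 11 S phase genes considered was higher in members and 1, Rrm2, was lower. Of 12 G2/M genes, 9 were lower, among them Mki67, at 167 against 274 CPM. The list of chaperones and folding enzymes of the endoplasmic reticulum was the other way round: 9 of 11 genes considered were higher and none lower, with summed medians of 54 and 44 against 13 in all other cells, 28 in Mpo-positive cells, 20 in Pf4-positive cells and 9 in Klf1-positive cells. Hsp90b1 was at 1018 CPM in members against 407, and Hspa5, the chaperone BiP, at 610 against 277. Immediate early genes of dissociation stress summed to a median of 0 in both hashtags and 1 in other cells.

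Members differed widely among themselves in Mcpt8. Rank correlations with Mcpt8 were computed over thinned members within each hashtag, for 4763 genes, and are descriptions over 55 and 72 cells of 1 library. Their median was -0.02 in A963 and -0.01 in A965. Prss34 had the largest, 0.92 in A963 and 0.87 in A965, followed by Cpa3 at 0.68 and 0.74 and Ctsg at 0.69 and 0.67. Then came Hsp90b1 at 0.79 and 0.60, Cd200r3 at 0.68 and 0.60, Tmsb4x at 0.59 and 0.61, Edem3 at 0.61 and 0.59 and Cd63 at 0.55 and 0.62. The genes most opposed to Mcpt8 were Gpx1, glutathione peroxidase 1, at -0.56 and -0.55, Eef1g, Elob, Snx5, Btf3, Skp1a, Pebp1 and Snrpf, the last at -0.35 and -0.37. The cells with more Mcpt8 also held fewer genes (-0.47 and -0.33) and lower totals (-0.49 and -0.35), and the part of this in the ranking was not tested.

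**Figure D3:**
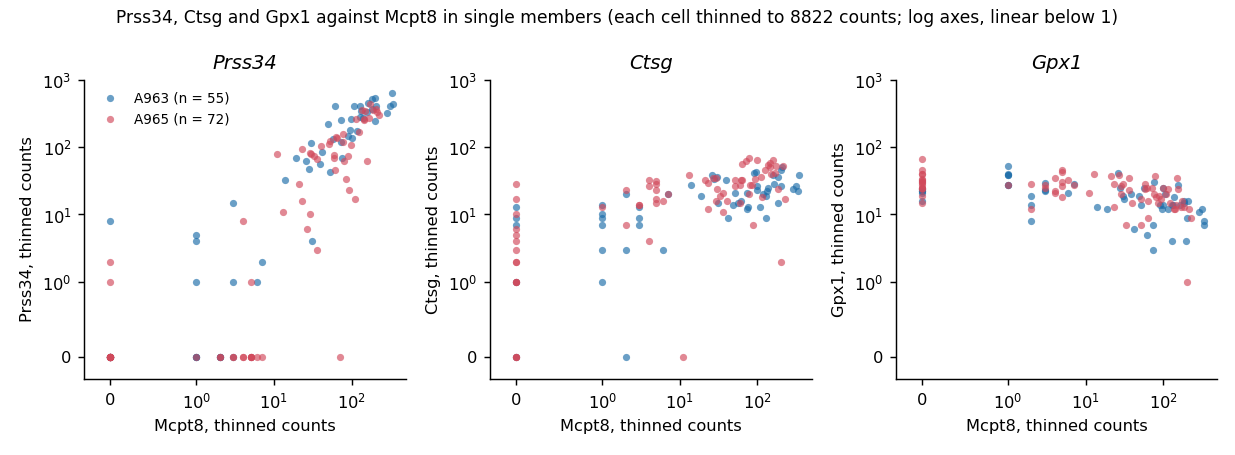
Thinned counts of Prss34, Ctsg and Gpx1 (y axes) against Mcpt8 (x axis) in single members, on log axes that are linear below 1. Prss34 is near 0 in cells with under 10 Mcpt8 counts and climbs with it above, Ctsg climbs more gently, and Gpx1 declines.

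Split by Mcpt8 into 3 groups of 18 or 19 cells in A963 and 24 in A965, the members with the least Mcpt8 held 0 to 7 thinned counts of it in A963 and 0 to 5 in A965, and those with the most held 100 to 339 and 63 to 229. In the lowest group Prss34 had a median of 0 in both hashtags, and in the highest 388.5 and 163. Fcer1a summed to 84.0, 411 and 1393 CPM from lowest to highest in A963, and to 52.4, 187 and 775 in A965. Ms4a2 was present across the range, at 852, 1263 and 1704 CPM in A963 and 524, 715 and 1630 in A965. Gata2 went from 237 to 520 CPM in A963 and from 127 to 442 in A965, and Cebpa from 221 to 484 and from 145 to 432. The chaperone Hsp90b1 went from 487 to 2536 CPM in A963 and from 617 to 1278 in A965. The groups also differed in cells with granule genes of other lineages, described below. The eosinophil granule gene Prg2 summed to 4723, 3.16 and 4.10 CPM from lowest to highest in A963, and to 10639, 19065 and 12.6 in A965. The neutrophil granule gene Camp summed to 305, 2544 and 442 CPM in A963 and to 3512, 6073 and 432 in A965. The part of such cells in the orders above was not tested.

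Kit, Cd34, Car2 and Gata1, picked after their values were seen, were higher in the lowest Mcpt8 group than in the highest in both hashtags, but the middle group did not always lie between them. Kit summed to 57.6, 28.5 and 24.6 CPM from the lowest to the highest Mcpt8 group in A963, and to 97.5, 21.7 and 12.6 in A965. Cd34, a surface sialomucin of progenitors, summed to 106, 108 and 41.0 in A963 and to 141, 83.1 and 56.6 in A965. Car2 had counts in 47.4%, 11.1% and 16.7% of the lowest, middle and highest group of A963 after thinning and in 41.7%, 12.5% and 16.7% of those of A965, so its middle groups were the lowest. Gata1 had counts in 31.6%, 11.1% and 22.2% of the A963 groups and in 50%, 16.7% and 16.7% of the A965 groups. Other genes of the stem and multipotent list went differently. Txnip, which binds thioredoxin, summed to 223, 177 and 238 CPM in A963 and to 108, 147 and 354 in A965, and Angpt1, the growth factor angiopoietin 1, to 182, 171 and 135 and to 105, 91.6 and 199. In the highest groups Kit and Gata1 had a median of 0 thinned counts, and Kit had counts in 16.7% of cells in A963 and 8.33% in A965. Their values there rest on few counts, so no further order is read from them. Mki67 had no shared order, at 122, 66.5 and 307 CPM in A963 and 179, 186 and 149 in A965.

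Within the members, A965 was then set against A963. Of 5920 genes considered, 4.75% were at least 1.5-fold higher in A965 members and 8.73% at least 1.5-fold lower, with 10 CPM added, and the median log2 ratio was -0.07. Higher genes made up 35.2% of these calls, but 51.9% with median-of-ratios scaling, 48.4% without the top cell of each hashtag for each gene and 45.7% with a minimum of 100 CPM. The balance between higher and lower genes thus differed with the scaling and with single cells. The 10 largest ratios, among genes that reached 100 CPM and were detected in 25% of the cells of the higher hashtag, were Cebpe, Camp, Rrm2, Chil3, Elane, Prtn3, Ngp, Ltf, Tk1 and S100a9. The 10 smallest were Xist, AC109138.2, AC160336.1, Trf, Apoe, Prss34, Sirt5, Ccl6, Ly6a2 and Fgf3.

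Several basophil genes were lower in A965 members, but their lists were not lower throughout. Of 11 granule genes considered, 3 were lower (Mcpt8, Prss34 and Gzmb), 3 higher (Prg2, Prg3 and Prss57) and 5 neither, with a median log2 ratio of 0.35. Of 8 genes for amines and lipid mediators, 2 were lower (Alox5 and Alox15), 1 higher (Ndst2) and 5 neither, with a median of -0.22. Of 6 cytokine and chemokine genes, 2 were lower (Csf1 and Ccl6) and none higher. Prss34 summed to 15078 CPM in A963 and 6671 in A965, which is 2.26-fold lower (2.21 to 2.31), and its per-cell median was 10103 against 2182 CPM. Mcpt8 summed to 7343 and 4271 CPM, 1.72-fold lower (1.67 to 1.77). Fcer1a summed to 517 and 281 CPM, 1.84-fold lower (1.63 to 2.08). The counts of single cells overlapped widely between the hashtags in each of these genes. Cd200r3 was 2.08-fold lower (1.65 to 2.64), Itga2b 2.05-fold (1.69 to 2.50), Csf1 2.16-fold (1.64 to 2.84) and Alox5 1.78-fold (1.49 to 2.11). Gata2 summed to 351 and 215 CPM, 1.63-fold lower (1.41 to 1.89), with per-cell medians of 281 and 213. Prss34, Mcpt8, Fcer1a, Gata2, Cd200r3, Itga2b and Csf1 kept their sign under each alternative run. After removal of the 2 groups of cells described below the log2 ratio was -0.93 for Prss34, -0.50 for Mcpt8, -0.65 for Fcer1a and -0.41 for Gata2, against -1.18, -0.78, -0.86 and -0.68 with all members. Mcpt8 then no longer reached 1.5-fold. Gata2 fell short of it under 5 alternatives, which were that removal, the removal of the cells with Prg2 or Epx alone, median-of-ratios scaling, thinned counts and the mean of per-cell CPM, and its lowest fold with 10 CPM added was 1.31.

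Not all genes of the lineage followed. Cpa3 summed to 2084 CPM in A963 and 2295 in A965, and Hdc to 288 and 268. Ms4a2 was 1.38-fold lower in A965 (1.28 to 1.49), short of 1.5-fold. Of the genes for the IgE receptor and its signalling, 15 were considered, 4 were lower (Fcer1a, Lat, Lat2 and Inpp5d) and 1, Btk, was higher, and the count of lower genes was 2 under 5 of the alternatives. Of 10 cytokine receptors considered, none differed by 1.5-fold, Kit included, at 39.9 and 45.6 CPM. Of 15 surface molecules considered, 4 were lower (Cd200r3, Itgb7, Itga2b and Cd200r1) and none higher, with a list median of -0.29. Of 23 transcription factors, 3 were lower (Gata2, within the limits just given, Runx1 and Irf8) and Cebpe was higher. The median log2 ratios were -0.33 for IgE receptor signalling, 0.13 for cytokine receptors and -0.21 for transcription factors, beside -0.07 over all genes.

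Apoe, apolipoprotein E, and Trf, transferrin, were also lower in A965 members. Apoe had 0, 15 and 59 counts in the lowest, median and highest A963 member and 0, 7 and 51 in A965, and it summed to 940 and 409 CPM, 2.30-fold lower (2.09 to 2.53). Trf summed to 111 and 42.1 CPM, 2.63-fold lower (1.96 to 3.53). In the other cells the A965 over A963 ratio was 0.85 for Apoe and 0.94 for Trf. The fibroblast growth factor gene Fgf3, seldom found elsewhere in the library, summed to 161 and 75.7 CPM, 2.12-fold lower (1.69 to 2.67). Ly6a2 was lower in A965 at a log2 ratio of -1.05 and higher, at 0.35, without the top cell of each hashtag, so 1 cell decided its sign, and Ccl6 went from -1.09 to -0.40 in the same way.

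Of 10 azurophil granule genes considered, 3 were higher in A965 members (Elane, Prtn3 and Prss57), 7 did not reach 1.5-fold either way and the list median was 0.35. Elane had 0, 1 and 273 counts in the lowest, median and highest A963 member and 0, 6.5 and 383 in A965, and summed to 509 and 1430 CPM, 2.81-fold higher (2.55 to 3.10). A single A963 cell held 54.9% of the A963 counts, and without the top cell of each hashtag the ratio was 5.27. Prtn3, proteinase 3, had 0, 5 and 219 counts in A963 and 0, 17.5 and 607 in A965, and was 2.69-fold higher (2.48 to 2.93). Mpo summed to 3109 and 4109 CPM, 1.32-fold higher (1.27 to 1.38). In all other cells the ratio of A965 to A963 ran the same way at a smaller size, at 1.17 for Elane, 1.59 for Prtn3, 1.69 for Prss57 and 1.14 for Mpo. In the Mpo-positive cells it was 0.86 for Elane, 1.15 for Prtn3, 1.35 for Prss57 and 0.82 for Mpo, and in the Pf4-positive cells 5.52, 7.57, 8.38 and 14.8. The replication genes Rrm2 and Tk1, which supply deoxynucleotides, were 3.51-fold (2.48 to 5.09) and 2.81-fold (1.96 to 4.15) higher, although 1 of 11 S phase genes in the list reached 1.5-fold.

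Summed over cells, Ifitm1, an interferon-induced transmembrane gene, was higher in A963 than in A965 among members and the reverse among other cells. It summed to 1829 CPM in members and 248 in other cells. Its counts were 0, 22 and 260 in the lowest, median and highest A963 member and 0, 27.5 and 191 in A965. The ranges overlapped, and the median count, not scaled to depth, was higher in A965. In members it summed to 2272 CPM in A963 and 1612 in A965, a ratio of 0.71 (0.67 to 0.75). With 10 CPM added it was 1.41-fold lower in A965, short of 1.5-fold. The fold was 1.34 without the top cell of each hashtag and 1.52 by the mean of per-cell CPM. In the other cells it summed to 92.7 and 360 CPM, a ratio of 3.89 (3.81 to 3.97), and the ratio was 4.93 (4.77 to 5.10) in Mpo-positive cells, 1.81 (1.61 to 2.03) in Klf1-positive cells and 1.92 (1.66 to 2.22) in Pf4-positive cells. The counting intervals of the members' ratio and of these ratios do not overlap, but they leave out the spread between cells and any repeated reads of 1 molecule. With 1 library per hashtag the difference was not tested against the spread between mice. Of 3 interferon-stimulated genes considered in members, 1, Ifi47, was higher in A965, and of 3 genes for NF-kB and acute inflammation, 1, Nfkbia, was lower.

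A few members carried most of the counts of some genes. After the values were seen, 7 members were singled out that held at least 100 counts of Prg2 or 10 of Epx, which encode the major basic protein and the peroxidase of eosinophil granules. Of these, 6 carried A965 and 1 carried A963. Their Prg2 counts were 653 to 6865 with a median of 3390, and their Epx counts 51 to 815 with a median of 285. The other 120 members reached at most 11 Prg2 counts and 9 Epx counts. The 7 cells held 99.9% of the Prg2 counts of A965 members and 99.8% of those of A963, so the ratio between hashtags is a ratio of 6 cells to 1. A single cell outside the members passed either limit, and it too had Ms4a2 and Mcpt8 counts.

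The 7 cells differed from the other members in several further genes. Cebpe, a C/EBP factor of granulocyte maturation, had 3 to 70 counts in them with a median of 38, and a median of 0 in the others. Mpo had a median of 299 against 51 counts and Elane 90 against 2. Gata2 had no count in 5 of the 7, and 111 of the other 120 had it. Fcer1a had a count in 1 of the 7 and Prss34 in 3, at 38 counts or fewer, whereas Mcpt8 was present in all 7 at 6 to 108 counts and Ms4a2 at 3 to 31. Il5ra, the interleukin 5 receptor chain of eosinophils, had 1 to 5 counts in 6 of the 7 and was found in 5 of the other 120. Ear1, Ear2 and Ear6, close copies of one another, were mostly at 0, with 1 cell at 284 counts of Ear2. The totals of the 7 cells were 29582 to 67973 counts, with a median of 40837 against 17687, and Scrublet, which scores simulated doublets, called none of them. The part of this depth in the result was not tested.

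**Figure D4:**
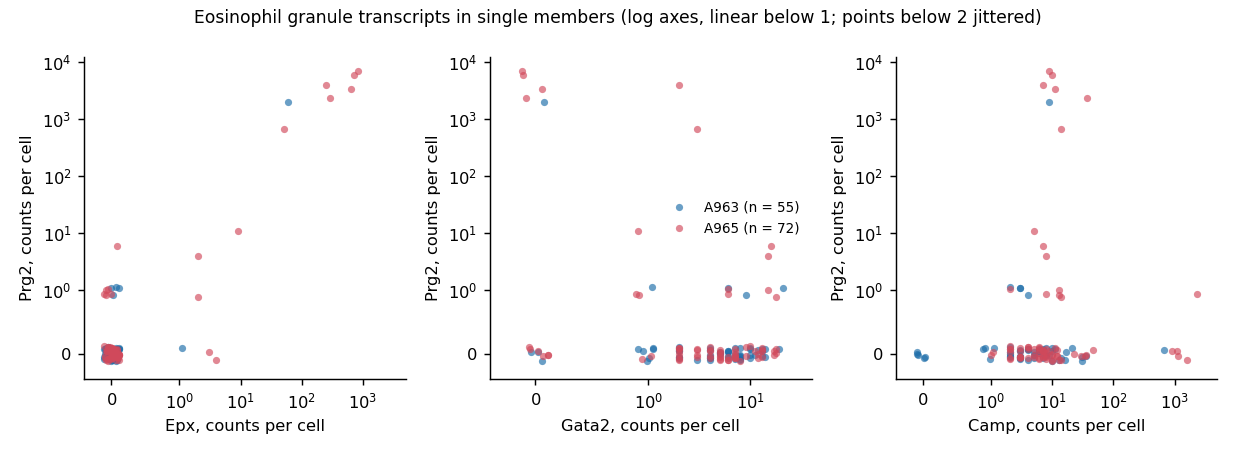
Prg2 counts in single members against Epx, Gata2 and Camp counts, on log axes that are linear below 1. The 7 cells at the top of each panel, with 653 or more Prg2 counts, are the cells with the most Epx, sit at 0 to 3 Gata2 counts, and are not the cells at the right of the Camp panel.

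Another 6 members, also singled out after their values were seen, carried transcripts of the later neutrophil granules. Their summed thinned counts over that list were 902 to 3479, and no other member exceeded 261. Of the 6, 5 carried A965 and 1 carried A963, none was among the 7 cells with eosinophil granule genes, and Scrublet called 2 of them doublets. They held 666 to 2311 counts of Camp, an antimicrobial peptide of specific granules. Their marker counts differed, with 1034 of Prss34 and 322 of Mcpt8 in 1 cell and 0 of Prss34 and 1 or 10 of Mcpt8 in 2 others. Camp as such was widespread, with counts in 88.2% of members and 85.8% of Klf1-positive cells after thinning, at a median of 6 counts per member before it. The remaining members had medians of 40 and 39 for the list in A963 and A965, against 129 in other cells.

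The 6 cells were chosen by their counts over that list and 5 carried A965, so a smaller difference without them follows from the choice. The values are given as a description. With all members, 10 of 11 later granule genes considered were higher in A965 members, and without the 6 cells none was. Camp went from a log2 ratio of 1.84 to -0.12, Ngp from 1.32 to -0.11, Ltf from 1.28 to -0.32, S100a9 from 1.27 to -0.14 and Chil3 from 1.58 to -1.18. The 5 cells of A965 held 91.8% of its Camp counts. Cebpe was shared between both sets, which held 69.4% and 19.8% of the A965 counts, and its log2 ratio went from 2.00 to 1.22 without them. Elane and Prtn3, at 1.34 and 1.32 without both sets, stayed close to their values of 1.47 and 1.41 with all members.

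**Figure D5:**
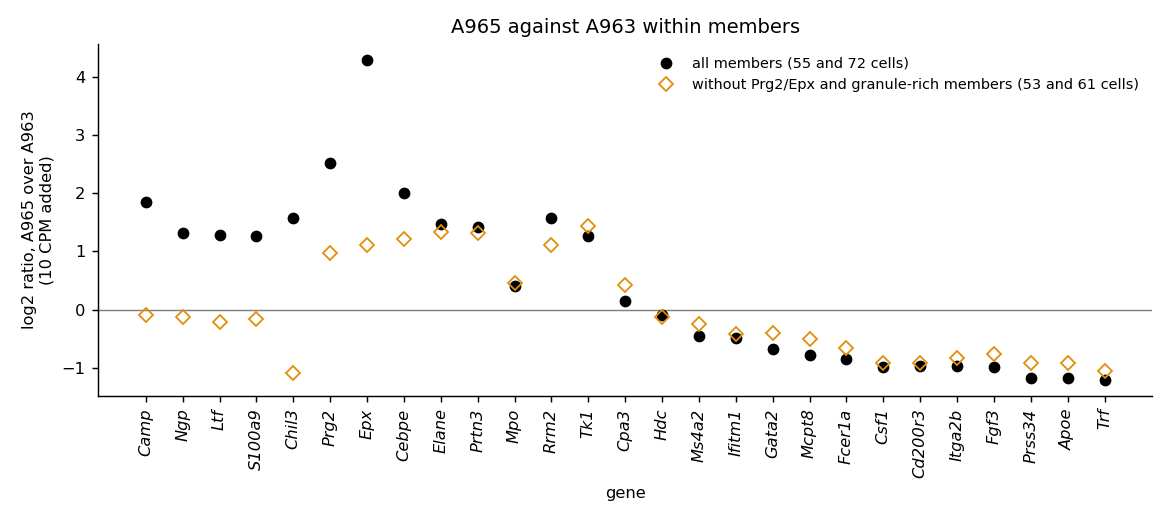
Log2 ratio of A965 over A963 in members (y axis, 10 CPM added) for selected genes, with all members (filled) and without the 7 cells with eosinophil granule genes and the 6 with later neutrophil granule genes (open). Camp, Ngp, Ltf, S100a9 and Chil3 cross 0, whereas Prss34, Apoe and Trf stay below it and Elane and Prtn3 above.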

How the data were processed

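The authors deposited a table of whole-number counts per gene and cell for 1 library, with the hashtag in each cell name, per the file headers. Whether counts are molecules or reads, whether strand was used, and the aligner and annotation are not given in the sources used here. The submitters' processing notes name Seurat 4.2.0, R 4.2.1 and the build GRCm38, without a role. The table held 25661 genes and 10731 cells, and no cell name occurred more than once. A single hashtag was in the name of 10535 cells; 190 others were named doublets, and 6 without a detected hashtag were left out. A minimum of 500 genes and a maximum of 20% mitochondrial counts removed 7. The number of values of 2 was 54.7% of that of values of 1, so counts may hold repeated reads of 1 molecule. In that case the intervals of ratios of summed counts, which take counts as independent, are too narrow.

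The members and the 24 gene lists (299 of 311 genes were in the table) were chosen with earlier results of these data known. CPM are sums of counts over cells, scaled, and log2 ratios have 10 CPM added. Genes considered had a mean of at least 20 CPM over the 2 groups compared, and called means at least 1.5-fold. Printed folds have nothing added. Shares have exact Clopper-Pearson intervals and ratios exact conditional intervals, at 95%. With 1 sample there was no replicate, no test and no p-value. Genes named are the 10 largest ratios in each direction among genes that reached 100 CPM and were detected in 25% of cells on the higher side (names of mt-, Rpl, Rps, Gm-number or Rik form left out), the 8 genes each way by the smaller of the 2 Spearman coefficients with Mcpt8, and members of the lists, of which those printed were picked after their values were seen. The same ranking against Gzmb could not be made, since Gzmb had no count in A965 members.

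Scrublet (scanpy 1.11.5, Python 3.11.15) called 223 cells doublets, 2.12% of all filtered cells, among them 4 members, all of A965. They stayed in. Other tools were numpy 2.4.6, scipy 1.17.1, pandas 2.3.3 and matplotlib 3.10.9. The ratio step was tested on simulated counts with counting error only. They held no spread between cells, so this does not check the intervals against that spread. In GENCODE M21, 96.4% of symbols were found. Alternatives changed the member rule, the CPM added, the minimum, the scaling, the depth and the cells kept.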

Additional observations from a re-analysis of the deposited data

Results flagged for a closer look

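Cells that the authors named doublets enter no comparison above. Of these 190 cells, 4 met the same rule as the members (2.11%, exact 95% interval 0.577% to 5.30%, against 1.21% of the single-hashtag cells). They held 75 to 350 counts of Mcpt8 and 23 to 661 of Prss34, and 1 of them also held 1555 counts of Camp. The signal was noted because it lies in cells outside the main measurement, and with 4 cells the 2 shares were not distinguishable.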

How the results depend on the processing

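Shares of members under looser, stricter and thinned rules, without the Klf1 and Pf4 limits, without Scrublet calls and without the cell filter stayed within the intervals of the values reported. Counts of genes higher and lower in A965 members, 281 and 517, depended on settings for low genes: 436 and 811 with 1 CPM added, 59 and 76 with 50 CPM added, 692 and 1091 with no minimum, and 42 and 50 with a minimum of 100 CPM, while thinned counts gave 517 higher. The IgE receptor list had 4 genes lower, and 2 with 50 CPM added, a minimum of 100 CPM, median-of-ratios scaling, the stricter rule or without the cells with Prg2 or Epx. The later neutrophil granule list had 10 genes higher, and 0 without the 6 cells with those genes, with or without the 7 cells with Prg2 or Epx. The first removal gave log2 ratios of -0.12 for Camp, -1.18 for Chil3, -0.11 for Ngp, -0.32 for Ltf, -0.14 for S100a9 and -0.35 for Ifitm6. Removing both sets gave -0.092, -1.09, -0.14, -0.21, -0.16 and -0.30. Ifitm6 was at -0.048 without Scrublet calls, and Ly6a2 at 0.35 without the top cell of each hashtag. These 3 removals of cells by Prg2, Epx or granule counts were chosen after seeing the data and by the same genes, and the cause was not tested. No paired analysis was possible because the series has 1 sample. With 55 and 72 members, transcripts present in few cells rest on few counts, intervals cover counting error only, and no statement reaches beyond these mice.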
